A study of Homo sapiens with 5 samples.

Results

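MED30 and MED17, both subunits of the Mediator complex, were mapped in a human pancreatic cancer line, Mia PaCa-2, by chromatin immunoprecipitation followed by sequencing (ChIP-seq). The regions described are the 10792 MED30 peaks and the 11797 MED17 peaks that lie on chromosomes 1 to 22 and X outside stretches of over 2 Mb without an annotated gene. These 22589 peaks were taken by position alone from the 51322 peaks of the 5 lists in the series, and they are 89.6% of each subunit's own list. Both subunits were mapped in parental cells under normal culture, with no hairpin construct and no doxycycline. Both chromatins were fixed in the same way, with 2 mM disuccinimidyl glutarate (a protein-to-protein crosslinker) for 20 min and then 1% formaldehyde for 10 min. Each subunit has 1 library, so differences could not be set against replicate spread and no test was made. Differences of antibody, library kit (either of a pair of kits, not given per library) and subunit cannot be told apart.

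Mediator is a large complex that carries signals from DNA-bound activators to RNA polymerase II and the general initiation factors at promoters. Its head and middle modules contact the polymerase, its tail faces activators, MED14 is the scaffold, and a separable kinase module with CDK8 or CDK19 can cover the surface that holds the polymerase. MED17 is a core head subunit found from yeast to humans, and MED30 is a head subunit of animals with no clear counterpart in budding yeast.

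Recovered pileups were close in the 2 libraries, and read counts were not examined. The genome-wide background, taken as the lowest local background recovered at any peak, was 1.603 fragments for MED17 and 1.651 for MED30. The median pileup at the summit, the highest point of a peak, was 23 and 21 fragments. The median peak was 786 bp wide for MED17 and 662 bp for MED30, and its fold enrichment (summit pileup over local background, as the authors deposited it) was 4.97 and 4.80. Strength is compared below by ranks within a list, written as percentiles with 100 for the strongest peak. Folds of both subunits are also printed for single genes and sites, but the 2 lists were not put on a common scale. As a check on the cells, no promoter of 7 acinar, 6 islet, 6 immune or 4 endothelial marker genes held a peak of either subunit, while 49.2% of all protein-coding genes held MED17 and 42.4% held MED30. Of 6 fibroblast markers, COL1A2 and ACTA2 held both, of 8 ductal markers 4 held both and KRT8 held MED30 alone, and of 6 mesenchymal markers ZEB1 and VIM held both.

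The promoters that carry the main patterns are printed first, each as the 250 bases before the annotated start, on the strand of the gene, from RefSeq on GRCh38.p14. Capitals mark motif matches on either strand, and matches that overlap were each counted. The TATA box was searched as TATAAA. The GC box, the site of SP family factors, was searched as GGGCGG. The core of sites for ETS factors, which are common in promoters of housekeeping genes, was searched as CCGGAAG. The CCAAT box carries its letters in its name. The first 3 are among the strongest sites shared by both subunits. PGK1 encodes a glycolytic kinase (chrX:78103998-78104247, plus strand), SRSF6 a splicing factor (chr20:43457646-43457895, plus strand) and NXF1 the main exporter of messenger RNA (chr11:62805441-62805690, minus strand).
PGK1: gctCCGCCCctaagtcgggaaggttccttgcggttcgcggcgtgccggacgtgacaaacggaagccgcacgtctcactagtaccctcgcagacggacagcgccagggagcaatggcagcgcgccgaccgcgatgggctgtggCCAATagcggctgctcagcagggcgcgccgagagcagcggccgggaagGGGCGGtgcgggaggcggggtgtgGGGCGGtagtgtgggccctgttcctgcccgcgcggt
SRSF6: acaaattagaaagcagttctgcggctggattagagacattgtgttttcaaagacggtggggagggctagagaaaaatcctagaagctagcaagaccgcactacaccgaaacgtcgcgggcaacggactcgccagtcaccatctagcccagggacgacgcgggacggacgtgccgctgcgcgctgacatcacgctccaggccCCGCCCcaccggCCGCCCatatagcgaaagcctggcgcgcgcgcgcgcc
NXF1: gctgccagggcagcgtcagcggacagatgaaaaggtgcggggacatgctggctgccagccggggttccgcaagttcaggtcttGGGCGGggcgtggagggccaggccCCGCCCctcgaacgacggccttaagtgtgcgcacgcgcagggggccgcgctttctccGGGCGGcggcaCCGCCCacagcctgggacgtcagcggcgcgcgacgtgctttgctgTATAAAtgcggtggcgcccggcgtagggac
The next 2 held MED30 with no MED17 peak within 5 kb. SKIC8, a subunit of the helper complex of the RNA exosome, is at chr15:78299610-78299859, minus strand, and RASL11A, a small GTPase of the Ras family, is at chr13:27270580-27270829, plus strand.
SKIC8: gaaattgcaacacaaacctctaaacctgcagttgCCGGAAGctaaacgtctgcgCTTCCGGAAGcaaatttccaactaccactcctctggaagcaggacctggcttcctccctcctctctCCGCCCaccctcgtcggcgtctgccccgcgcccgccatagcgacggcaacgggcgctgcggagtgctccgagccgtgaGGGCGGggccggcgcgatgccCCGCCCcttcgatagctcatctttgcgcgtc
RASL11A: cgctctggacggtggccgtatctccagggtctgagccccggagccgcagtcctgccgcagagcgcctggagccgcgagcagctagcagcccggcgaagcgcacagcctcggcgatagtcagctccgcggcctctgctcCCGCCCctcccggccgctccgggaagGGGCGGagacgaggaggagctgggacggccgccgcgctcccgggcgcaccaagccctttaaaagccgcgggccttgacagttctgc
A further 2 held MED17 with no MED30 peak within 5 kb. AVEN, an inhibitor of apoptosis, is at chr15:34039205-34039454, minus strand, and MAP3K2, a kinase upstream of stress-activated kinases, is at chr2:127388466-127388715, minus strand.
AVEN: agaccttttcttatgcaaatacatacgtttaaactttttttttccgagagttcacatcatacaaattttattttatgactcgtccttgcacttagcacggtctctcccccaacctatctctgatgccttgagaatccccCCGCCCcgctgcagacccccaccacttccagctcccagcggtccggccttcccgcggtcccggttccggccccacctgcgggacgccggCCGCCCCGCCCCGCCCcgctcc
MAP3K2: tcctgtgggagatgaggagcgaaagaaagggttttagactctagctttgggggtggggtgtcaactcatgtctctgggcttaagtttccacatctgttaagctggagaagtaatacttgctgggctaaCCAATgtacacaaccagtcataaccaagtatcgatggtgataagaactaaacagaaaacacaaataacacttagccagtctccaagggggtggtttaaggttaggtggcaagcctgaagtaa
The last 2 held both subunits at opposite ranks. H4C16, a gene for histone H4, is at chr12:14771132-14771381, minus strand, and ranked far higher for MED30. KRI1, a factor for assembly of the small ribosomal subunit, is at chr19:10566011-10566260, minus strand, and ranked far higher for MED17.
H4C16: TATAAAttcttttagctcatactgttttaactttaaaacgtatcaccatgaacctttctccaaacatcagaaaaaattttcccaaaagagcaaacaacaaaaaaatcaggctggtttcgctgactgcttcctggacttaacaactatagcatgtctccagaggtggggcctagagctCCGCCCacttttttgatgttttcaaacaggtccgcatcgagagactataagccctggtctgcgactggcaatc
KRI1: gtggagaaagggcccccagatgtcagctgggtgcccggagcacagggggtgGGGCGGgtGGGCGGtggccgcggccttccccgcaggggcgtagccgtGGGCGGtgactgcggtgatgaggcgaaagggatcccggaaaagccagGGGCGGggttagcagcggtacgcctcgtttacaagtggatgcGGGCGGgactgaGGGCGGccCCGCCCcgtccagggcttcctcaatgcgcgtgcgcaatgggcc
In these windows PGK1 has 3 GC boxes and 1 CCAAT box, NXF1 has 4 GC boxes and a TATA box, and SKIC8 has 3 ETS cores and 3 GC boxes. KRI1 has 7 GC boxes, AVEN 4, and H4C16 1 GC box and 1 TATA box. MAP3K2 has 1 CCAAT box and no GC box, and SRSF6 and RASL11A have 2 GC boxes each. The windows were set by the start, and the MED17 peak of MAP3K2 (chr2:127387312-127388169) lies outside its window.

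The first comparison asked how far both subunits marked the same places. Of the MED30 peaks, 8543 of 10792 overlapped a MED17 peak by at least 1 bp, which is 79.2% (exact Clopper-Pearson 95% interval 78.4 to 79.9). Of the MED17 peaks, 8650 of 11797 overlapped a MED30 peak, which is 73.3% (72.5 to 74.1). Such intervals reflect counting error alone and take each peak as independent of the rest. Requiring 50% overlap in both directions lowered the shares to 50.7% and 46.4%, and requiring summits within 250 bp lowered them to 43.7% and 40.0%.

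How often the subunits were found together differed by location, and the order differed between subunits. A promoter peak here touches the 1 kb on either side of the start of a protein-coding gene. MED30 promoter peaks overlapped MED17 in 90.1% of 7593 cases (89.4 to 90.8), while MED17 promoter peaks overlapped MED30 in 75.8% of 9198 (74.9 to 76.6). Outside promoters the order was the other way round: 53.1% of 3199 MED30 peaks overlapped MED17, and 64.7% of 2599 MED17 peaks overlapped MED30. At starts of long non-coding RNA genes the shares were 72.8% and 73.3%, inside protein-coding genes 50.3% and 56.8%, and in the remaining space between genes 50.5% and 67.4%.

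Stronger peaks were shared more often in both lists. Outside promoters, overlap of MED30 peaks rose from 29.1% of the 1104 in the lowest quintile of the list by fold to 93.6% of the 408 in the highest quintile. For MED17 outside promoters it rose from 49.6% to 90.6%. At promoters, overlap rose from 77.4% to 97.6% for MED30 and from 57.5% to 87.6% for MED17. In the highest quintile, 12.4% of 1997 MED17 promoter peaks still lacked a MED30 peak, against 2.40% of 1751 MED30 promoter peaks without MED17.

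**Figure D1:**
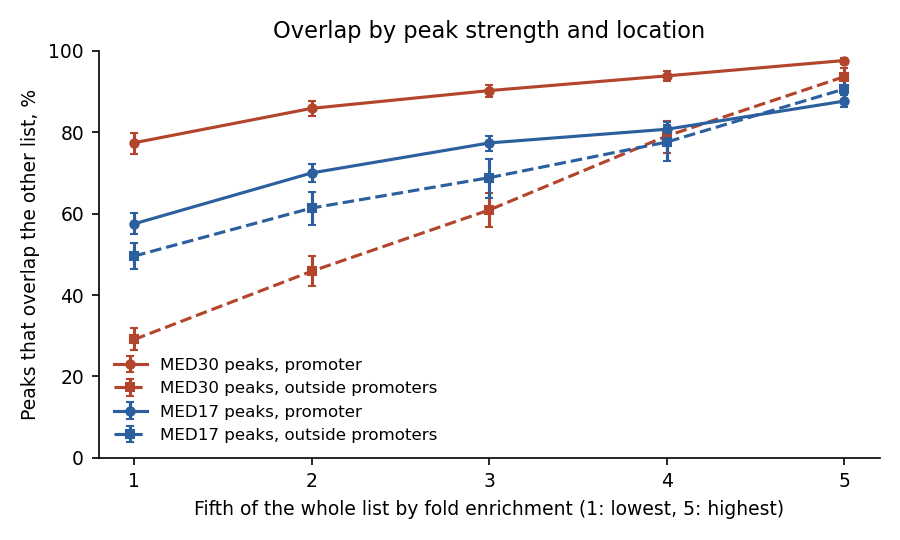
Share of peaks that overlap the other list (vertical axis, percent, with exact 95% intervals) against the quintile of the list by fold enrichment (horizontal axis), for MED30 and MED17 peaks at and outside promoters. All 4 lines rise, from 29.1% at the lowest for weak MED30 peaks outside promoters to 97.6% for strong MED30 promoter peaks.

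Peaks found with 1 subunit were weaker and narrower than shared peaks. The 2249 MED30 peaks without MED17 had a median fold of 3.99 and a median width of 459 bp, against 5.04 and 723 bp for those with it. The 3147 MED17 peaks without MED30 had medians of 4.40 and 544 bp, against 5.17 and 891.5 bp. Their places differed too. MED17 peaks without MED30 lay at promoters in 70.9% of cases (69.2 to 72.4), and MED30 peaks without MED17 in 33.3% (31.4 to 35.3), with 39.6% between genes and 22.5% inside genes. The promoter shares depended on which peaks were kept. When peaks below the median fold of each list were dropped, the promoter share of MED30 peaks without MED17 was 74.1% and that of MED17 peaks without MED30 was 85.2%. That alternative also removes weak partners of strong peaks, which then count as without the other. With equal numbers, the 8000 most significant peaks of each list, the shares were 54.8% and 84.3%. Some of these peaks were near misses: 25.7% of the MED30 peaks without MED17, and 21.5% of the MED17 peaks without MED30, had a summit of the other subunit within 5 kb.

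Where both subunits were present, their summits did not coincide at promoters. Overlapping peaks whose summits were each other's nearest formed 8453 pairs. The median distance between paired summits was 221 bp (quartiles 108 and 371). It was 233 bp over 6768 pairs at promoters and 174 bp over 1641 pairs outside them. Only 20.6% of promoter pairs had summits within 100 bp, against 33.3% outside promoters.

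The distance had a direction along the gene. It was measured at 8269 protein-coding genes with a single annotated start and no other start within 2 kb, of which 2569 held both subunits. The median MED30 summit lay 11 bp upstream of the start, at -11 (quartiles -141 and 72), and the median MED17 summit lay downstream, at 198 (quartiles 84 and 299). Per start, the median offset of MED30 from MED17 was -189 bp (order-statistic 95% interval -200 to -178), negative meaning upstream. MED30 was the upstream summit at 1967 starts (76.6%). Genes on both strands gave the same picture, with -192 bp on the forward and -185 bp on the reverse strand, so the shift follows the gene and not the chromosome axis. It was -185 bp at the 999 starts where both peaks were in the upper 50% of their lists, and -154.5 to -210 bp in quintiles of promoter GC content.

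**Figure D2:**
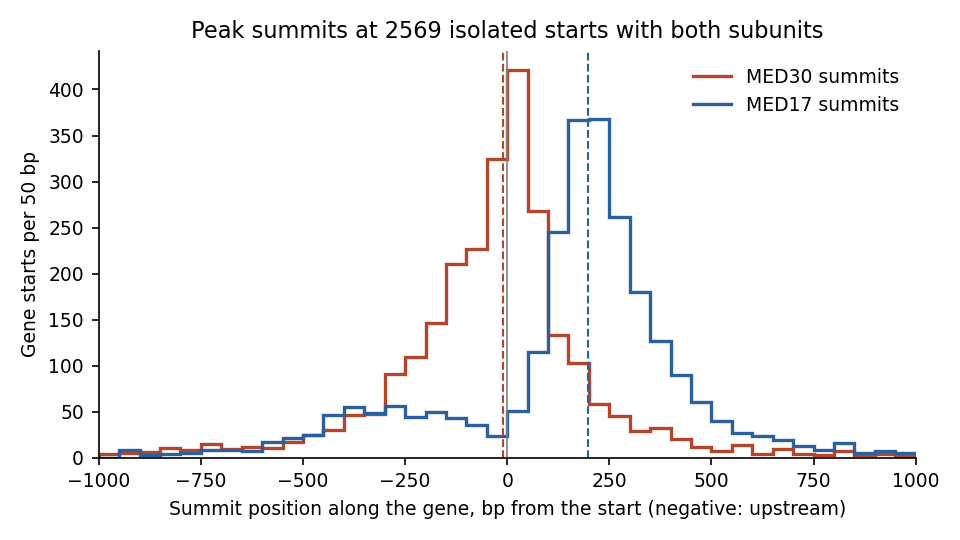
Number of gene starts (vertical axis, per 50 bp) by position of the peak summit along the gene (horizontal axis, bp from the annotated start, negative upstream) for MED30 and MED17 at 2569 isolated starts with both. Dashed lines mark the medians, -11 for MED30 and 198 for MED17; MED30 forms 1 mound over the start, and MED17 a tall mound downstream with a low one upstream.

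The shapes of both distributions differed. MED30 summits formed 1 mound over the start, with 1241 of 2569 (48.3%) within 100 bp of it. MED17 summits were rare at the start: 226 (8.80%) lay within 100 bp of it, 1242 (48.3%) lay 100 to 300 bp downstream, and a smaller group of 461 lay more than 100 bp upstream, with a median of -338. Just upstream of the start, from -100 to 0, there were 552 MED30 summits and 60 MED17 summits. Where MED17 was in the upstream group, the order of the summits turned: MED30 lay at a median of -168 and was on the gene side of MED17 at 343 of 461 starts. That group was picked by the position of its MED17 summit, which by itself favours MED30 on the gene side. The peaks themselves, not only the summits, differed: median edges were -349 and 324 bp for MED30, and -222 and 642 bp for MED17, so the MED17 peak reached farther into the gene. At 205 isolated starts of long non-coding RNA genes the medians were 3 for MED30 and 159 for MED17, with a median offset of -55 bp.

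Promoters that serve a pair of genes gave the same geometry in another form. In 439 divergent pairs of protein-coding genes the starts were at most 1000 bp apart, with a median gap of 219 bp. The strongest MED30 summit lay between both starts in 140 of 347 pairs with a peak (40.3%). The strongest MED17 summit lay there in 41 of 388 (10.6%), and otherwise past one start or the other in nearly equal shares, 43.0% and 46.4%.

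Single genes show the range. At SRSF6 the MED30 summit was at 11 bp and the MED17 summit at 222 bp, at NXF1 they were at -11 and 69, and at KRI1 at 0 and 358. Among starts where both peaks were in the upper 50% of their lists, the largest upstream offsets were at GSK3A, a glycogen synthase kinase, with MED30 at -748 and MED17 at 239, and at TBC1D12, with -60 and 879. They were followed by TFB1M (-701 and 186), ANKRD10 (-653 and 225) and NR1D1, a repressor of the circadian clock (-66 and 761). Offsets of the opposite sign were largest at POGLUT3 (541 and -223), TSSC4 (-113 and -831), ZBTB2 (725 and 124), ZNF2 (142 and -444) and GPX8 (814 and 246).

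Widths of paired peaks differed at promoters and hardly elsewhere. The median difference, MED30 minus MED17, was -152 bp over all pairs, -192 bp at promoters and -12 bp outside them. MED30 was the narrower peak in 71.4% of promoter pairs and in 52.0% of pairs outside promoters.

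Ranks by fold were only loosely shared. Across the 8453 pairs Spearman's rho between both folds was 0.27, a description over sites of 2 libraries that share a genome and a peak caller. It was 0.20 over promoter pairs and 0.47 over pairs outside promoters. The middle 50% of folds lay between 4.05 and 5.73 for MED30 and between 4.17 and 5.92 for MED17. Median summit pileups were only 21 and 23 fragments. Counting error over so narrow a range can hold rho down, and its part was not tested. Of the paired peaks in the strongest 10% of each list, 297 were in both, which is 28.1% of the 1057 for MED30 and 27.9% of the 1065 for MED17. Of that strongest 10% for MED30, 23.1% were paired with a MED17 peak in the lower 50% of its list, and the converse share was 26.2%.

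The promoters with the highest rank in both lists were led by PGK1. Its MED30 peak (chrX:78103822-78104331) had a fold of 16.8 (14.4 to 19.7, Poisson interval of the summit pileup) and its MED17 peak (chrX:78103854-78104314) one of 11.4 (9.09 to 14.1). Unlike most promoters, PGK1 had narrow peaks of 510 and 461 bp whose summits, at -192 and -140, were both upstream. High in both lists were also SRSF6, NXF1, MCU, the pore of the mitochondrial calcium channel, and RPS9, a small-subunit ribosomal protein. So were CPSF7 (a cleavage factor of messenger RNA), AARS2, PCBP2 and LRRC37A3. AARS2 was counted at a gene end of unknown strand, and LRRC37A3 belongs to a family of near-identical copies, so its reads may be split or pooled. At SRSF6 the folds were 10.7 for MED30 and 10.4 for MED17, at NXF1 12.5 and 9.08, at MCU 11.9 and 8.73, and at RPS9 12.8 and 8.50.

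Many of the highest folds of both lists lay outside protein-coding promoters, at genes for U-type small nuclear RNAs (snRNAs). These are the RNA cores of the spliceosome and of histone messenger RNA processing, short genes that RNA polymerase II reads from compact promoters of their own. The group was singled out after its values were seen. Of 35 such genes in the annotation, 31 held both subunits within 1 kb, through 30 distinct peaks in each list, and none held 1 subunit without the other. The 30 MED30 peaks had a median fold of 14.4 (8.05 to 20.1) and a median percentile of 99.7, and all 30 were in the strongest 10% of the list. The 30 MED17 peaks had a median fold of 9.48 (5.18 to 15.7) and a median percentile of 99.2, with 24 in the strongest 10%. They made up 19 of the 50 highest MED30 folds and 13 of the 50 highest MED17 folds. RNVU1-15, a variant U1 gene, was the strongest MED30 peak of all at 20.1, with 15.7 for MED17. RNU4ATAC, of the minor spliceosome, had 15.5 and 9.02, RNU5A-1 13.4 and 8.87, RNU2-1 13 and 8.92, and RNU11 15.2 and 11.3. Copies of U1 and U2 are nearly identical, so the reads of single copies are uncertain.

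At these genes the summits of both subunits fell together. The median distance between them was 25 bp, and 28 of 30 pairs were within 100 bp, against a median of 233 bp at protein-coding promoters. The summits lay close to the RNA itself, a median of 21 bp from the nearer end of the gene for MED30 and 50.5 bp for MED17. Spearman's rho over the 30 pairs was 0.90. Without these pairs rho outside promoters was 0.44 and the median summit distance there 177 bp. The small nucleolar RNA genes U3 (SNORD3A), U8 (SNORD118) and U13, which are also read by RNA polymerase II from such promoters, had percentiles of 99.5 for MED30 and 93.5 for MED17 at the median of the 3, and a median summit distance of 30 bp.

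Peaks near small RNA genes of RNA polymerase III looked different. Of 13 with promoters outside the transcribed part, among them U6, 7SK, RMRP, RPPH1 and Y RNA genes, 6 held both subunits, 4 MED17 alone and 1 MED30 alone. Over the 6 with both, the median percentiles were 85.0 for MED30 and 67.3 for MED17, and the median summit distance was 405.5 bp. Summits lay a median of 51 bp from the gene for MED30 and 551 bp for MED17. At RN7SK, whose RNA holds back the elongation kinase P-TEFb, the percentiles were 94.7 for MED30 and 47.5 for MED17. The 6 genes did not share an order: RMRP, the RNA of a ribosomal RNA processing enzyme, had 20.6 for MED30 and 87.1 for MED17, and RNU6-9 6.91 and 95.8. The RNU6-9 peaks are also those counted below at the protein-coding gene MED16. Their summits lay 382 bp (MED30) and 497 bp (MED17) from RNU6-9, but at 85 and 200 from the start of MED16. Of 443 transfer RNA genes, 96 held both within 1 kb, and the 73 distinct pairs of peaks had median percentiles of 42.0 for MED30 and 43.2 for MED17, near the middle of both lists. Median distances of summits from transfer RNA genes were 407 bp for MED30 and 364 bp for MED17. A peak within 1 kb can belong to a neighbouring promoter, so these ranks and distances need not describe the small RNA genes themselves.

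**Figure D3:**
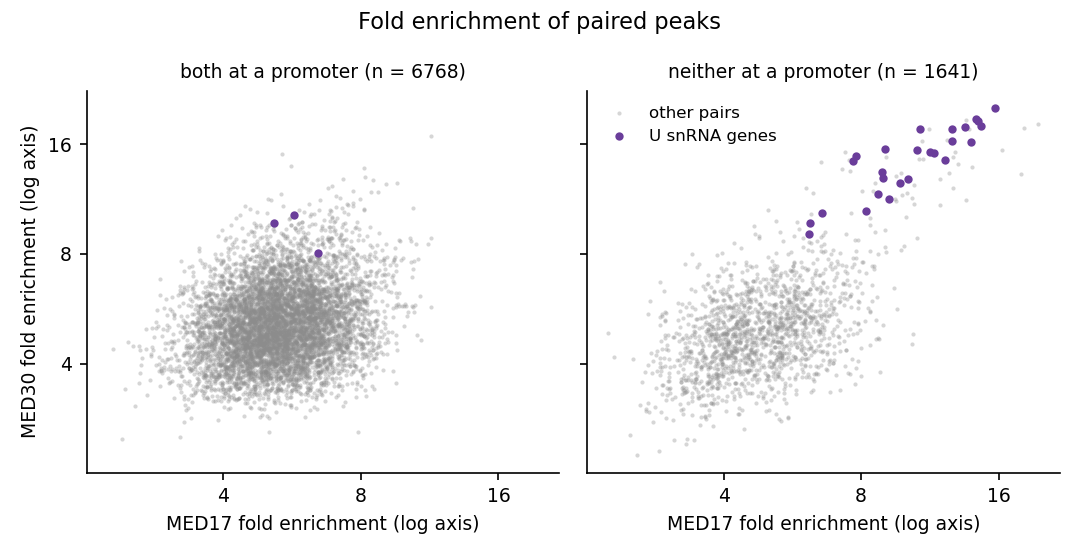
Fold enrichment of MED30 (vertical axis, log scale) against that of MED17 (horizontal axis, log scale) for pairs of peaks both at a protein-coding promoter (left, n = 6768) and neither at one (right, n = 1641), with pairs at U snRNA genes in purple. The promoter cloud is nearly round (rho 0.20), while the pairs outside promoters stretch along the diagonal (rho 0.47), with U snRNA genes at the upper end.

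Pairs of very unequal rank were found at promoters and outside them. MED17 ranked far higher at ATXN2L, a stress granule protein, where the MED17 fold was 7.90 (percentile 96.3) and the MED30 fold 2.61 (percentile 0.306). FKBP8, KRI1, SYDE1 and RNF8 followed, with MED17 percentiles of 93.2 to 98.2 and MED30 percentiles of 2.29 to 7.01. MED30 ranked far higher at CASP8, the initiator caspase of death receptors, with folds of 7.65 (percentile 94.8) and 3.23 for MED17 (percentile 3.94). It did so too at H4C16 (folds of 6.81 and 2.91), at BCORL1, with the MED30 summit 1609 bp and the MED17 summit 1091 bp past the start, and at a pair of sites far from any protein-coding start, with LPIN1 and PIK3CG as the nearest genes. At H4C16 the MED30 summit was at 11 bp and the MED17 summit at 1097 bp.

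Counted by gene, MED17 was the more widespread subunit at promoters. Of 19973 protein-coding genes, 9829 (49.2%) held a MED17 peak within 1 kb of a start and 8472 (42.4%) a MED30 peak. Both were at 7959 genes (39.8%), MED17 alone was at 1870 (9.36%) and MED30 alone at 513 (2.57%). For the 15812 genes whose start and strand are known the counts were 6682 with both, 1519 with MED17 alone and 418 with MED30 alone. The remaining 4161 genes were counted at either end. MED30-alone genes depend on list size: they numbered 1308 with the 8000 most significant peaks of each list and 1809 when only peaks above the median fold of each list were kept, against 2037 and 2466 with MED17 alone. A gene counted as alone can hold a peak of the other subunit just under the caller's threshold.

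The strongest promoters with MED30 and no MED17 within 5 kb, of 440 such sites, were modest next to shared ones. SKIC8 had a MED30 fold of 8.83 (5.92 to 12.7) from a summit pileup of 27, with the summit at -206, and RASL11A one of 7.46 (4.84 to 11.04), with the summit at -2. LOC124905351, CRIM1, a regulator of growth factor signalling, and DNAJC22 completed the first 5, each counted at a gene end of unknown strand. The LOC124905351 peak (chr3:10280-10687) lies at the tip of its chromosome, and whether repeats pool reads there was not examined. There were 1742 such sites for MED17. AVEN had a MED17 fold of 9.99 (7.29 to 13.4) with the summit at 271, MAP3K2 one of 9.37 (7.005 to 12.3) with the summit at 785, SLC7A1, a transporter of cationic amino acids, one of 8.73, VPS37B one of 8.60 and RASL10B one of 8.59. The summits of AVEN, MAP3K2, SLC7A1 (378) and VPS37B (339) all lay inside the gene, on the side where MED17 summits lay in general.

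Outside promoters 1232 MED30 sites and 728 MED17 sites had none of the other subunit within 5 kb. The strongest for MED30 lay nearest to LOC124900586 (chr16:846586-847124, fold 8.68), 9007 bp past the start of PHRF1 (chr11:585255-585625, fold 7.81) and 7182 bp past the start of HSPA1B, an inducible heat shock protein (chr6:31834631-31835137, fold 7.39). The site past HSPA1B touched the 1 kb on either side of the start of a long non-coding RNA gene. The list went on with sites near SPATA13 and GOLGA6L7. For MED17 the strongest lay nearest to ASMT (chrX:1591598-1592499, fold 9.01), SERHL2, LOC124904394 and SHKBP1. The site near LOC124904394 was likewise at a long non-coding RNA start.

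Gene lists, all chosen with earlier results of these data known, were described by their counts and by the median percentile of the strongest promoter peak, beside 56.5 for MED17 and 57.9 for MED30 over all bound genes (57.6 and 56.6 by -log10 p). The counts stand beside shares over all protein-coding genes of 39.8% with both subunits, 9.36% with MED17 alone and 2.57% with MED30 alone. Genes that are neighbours, within a list or across lists, can share a peak. Where ranking by -log10 p gave another order than ranking by fold, both are given. A gene without a peak can also be one where reads cannot be placed, which was not examined.

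Mediator's own genes were nearly all occupied. Of 33, 25 held both subunits and 6 MED17 alone. The other two, MED30 itself and MED12L, held neither. MED17 alone was found at MED6, MED20, MED27 and MED28 of the head, at MED23 of the tail and at MED13 of the kinase module. None held MED30 alone. At MED17 the folds were 6.49 for MED17 (percentile 85.0) and 7.82 for MED30 (percentile 95.5), with summits at 234 and 42. Median ranks differed between modules, each over few genes. By -log10 p, the head genes with a peak had median percentiles of 63.3 for MED17 and 89.1 for MED30, the middle genes 77.1 and 48.4, and the scaffold and tail genes 66.9 and 36.6, and ranking by fold gave the same order in each. At MED8 the percentiles were 16.4 for MED17 and 95.2 for MED30, and at MED16 they were 95.8 and 6.91. CCNC, the cyclin of the kinase module, was high in both, at 96.2 and 96.0.

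Ribosomal protein genes of the large subunit were all occupied, 45 of 45 by both subunits, through 45 distinct peaks in each list. Their rank differed between lists: the median percentile was 92.9 for MED30 and 59.2 for MED17, or 95.9 and 80.2 by -log10 p. RPL38 had folds of 11.2 for MED30 and 5.08 for MED17, RPL15 10.6 and 4.59, RPL24 10.6 and 5.86, and RPL11 10.5 and 6.89. Over the 37 with positions, the median summit was at 9 for MED30 and at 319 for MED17, against -34 and 175 over all 6565 genes with positions. At RPL38 the summits were at 44 and 483.

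Histone genes of the replication-dependent clusters, read during DNA synthesis, most of them core histones with H1-2 and H1-4 among them, were occupied at 28 of 30. Both subunits were at 26, with MED17 alone at H3C2 and MED30 alone at H3C10. The median percentile was 68.2 for MED30 and 15.9 for MED17 by fold, or 95.02 and 59.04 by -log10 p. Neighbours shared peaks, so the list rests on 22 distinct MED30 and 21 distinct MED17 peaks. The median summit pileup was 63 fragments for MED30 and 37 for MED17. H4C3 had folds of 12.3 and 6.91, H4C8 8.33 and 5.09, H2AC8 7.63 and 4.97, and H4C4 6.94 and 4.27. These genes are near-identical copies, so counts for single copies are uncertain.

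Immediate early genes, which respond to growth signals within minutes, held both subunits at 20 of 28, MED17 alone at EGR2, and MED30 alone at DUSP4 and ZFP36. Neither subunit was called at ATF3, EGR3, IER3, DUSP6 and NR4A1. Their median percentile was 73.2 for MED30 and 34.7 for MED17, or 91.9 and 65.5 by -log10 p. IER5 had folds of 9.11 for MED30 and 3.54 for MED17, with summits at -13 and 760. KLF2 had 8.97 and 4.96, JUND 8.60 and 4.22, and MCL1, a survival factor, 8.57 and 6.60.

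Stress genes were shared too. Of 25 heat shock and chaperone genes 23 held both, and no peak was called at the promoters of HSPA1A and HSPA1B. These are near-identical copies, so their reads may be lost or split. HSP90AA1 had folds of 12.2 for MED30 and 6.79 for MED17, with summits at -18 and 179, and DNAJB1 had 10.1 and 6.91, with summits at -18 and 125. CCT2, a chaperonin subunit, ranked higher for MED17, with 7.67 for MED30 and 10.5 for MED17. The median percentiles were 88.9 for MED30 and 71.6 for MED17 by fold, but 86.9 and 89.96 by -log10 p, so their order depends on the measure. Of 14 genes of the integrated stress response, 11 held both, and DDIT3, its proapoptotic transcription factor, and SLC7A11, the cystine transporter, held MED30 alone. HERPUD1 had folds of 9.46 for MED30 and 7.28 for MED17.

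Cholesterol synthesis genes ranked lower for MED30. Of 24, 18 held both, SQLE held MED17 alone, and MSMO1 and MVK held MED30 alone. The median percentile was 28.04 for MED30 and 53.4 for MED17, or 33.6 and 70.9 by -log10 p. LSS had folds of 3.47 for MED30 and 8.47 for MED17, and SREBF2, the activator of the pathway, 3.97 and 7.71. TM7SF2 went the other way, with 7.54 for MED30 and 5.62 for MED17.

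The transcription machinery was mixed. Of 31 initiation factor genes 20 held both, 7 MED17 alone, among them TAF4 (fold 8.48), GTF2A2, GTF2F1 and GTF2E1, and 2 MED30 alone, TAF11 and TAF6. TAF7 had folds of 8.81 for MED30 and 6.74 for MED17, and GTF2B 8.02 and 5.14. Of 12 polymerase II subunit genes 8 held both, POLR2E and POLR2K held MED17 alone and POLR2G MED30 alone. The polymerase medians were 77.1 for MED30 and 69.1 for MED17 by fold, and 77.95 and 78.97 by -log10 p. Of 28 genes of pause release and elongation 25 held both, and LARP7, the partner of 7SK RNA, held MED30 alone. HEXIM1, the inhibitor of P-TEFb, had a MED30 fold of 9.59 (percentile 98.6) and a MED17 fold of 4.16 (percentile 24.5), while CDK12 was high in both, with 8.46 and 8.68. The HEXIM1 summit pileups were 131 fragments for MED30 and 51 for MED17, the latter above its list median of 23. Within the MED17 list HEXIM1 was thus low by fold over local background but above the median by pileup. Between the subunits both measures were higher for MED30. Of 11 cohesin genes 10 held both and RAD21 MED17 alone. Of these 10, 5 ranked higher for MED30 and 5 for MED17. NIPBL, the cohesin loader, had percentiles of 97.3 for MED30 and 50.6 for MED17, while PDS5A and WAPL, regulators of cohesin release, had 50.8 and 69.2 for MED30 and 92.8 and 92.1 for MED17. The medians of this list were 75.3 for MED30 and 66.8 for MED17 by fold, but 65.5 and 76.6 by -log10 p.

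Lists of cell state differed from each other in how many genes held a peak. Of 17 genes of the classical pancreatic program, ERBB3 and FOXA3 held both, KLF5 held MED30 alone, and 14, GATA6, HNF4A and FOXA1 among them, held neither. Of 22 mesenchymal and matrix genes 12 held both, and LGALS1 and TGFBI held MED30 alone. SNAI1, a repressor of epithelial genes, had folds of 8.92 for MED30 and 6.78 for MED17, and the integrin ITGB1 7.12 and 4.04. The integrin ITGA5 and the caveolin CAV2 went the other way, at percentiles of 17.4 and 10.1 for MED30 and 86.6 and 86.0 for MED17. The medians of this list were 38.03 for MED30 and 32.2 for MED17 by fold, but 65.5 and 67.2 by -log10 p. Of 18 targets of YAP and TEAD 10 held both, LATS2 held MED17 alone (fold 6.82), CRIM1 and NUAK2 held MED30 alone, and CCN2 was among 5 with neither. CCN1 had folds of 5.59 for MED30 and 4.53 for MED17, and PTPN14 4.28 and 5.64. The medians of this list were 38.3 for MED30 and 34.4 for MED17 by fold, but 54.4 and 61.7 by -log10 p.

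**Figure D4:**
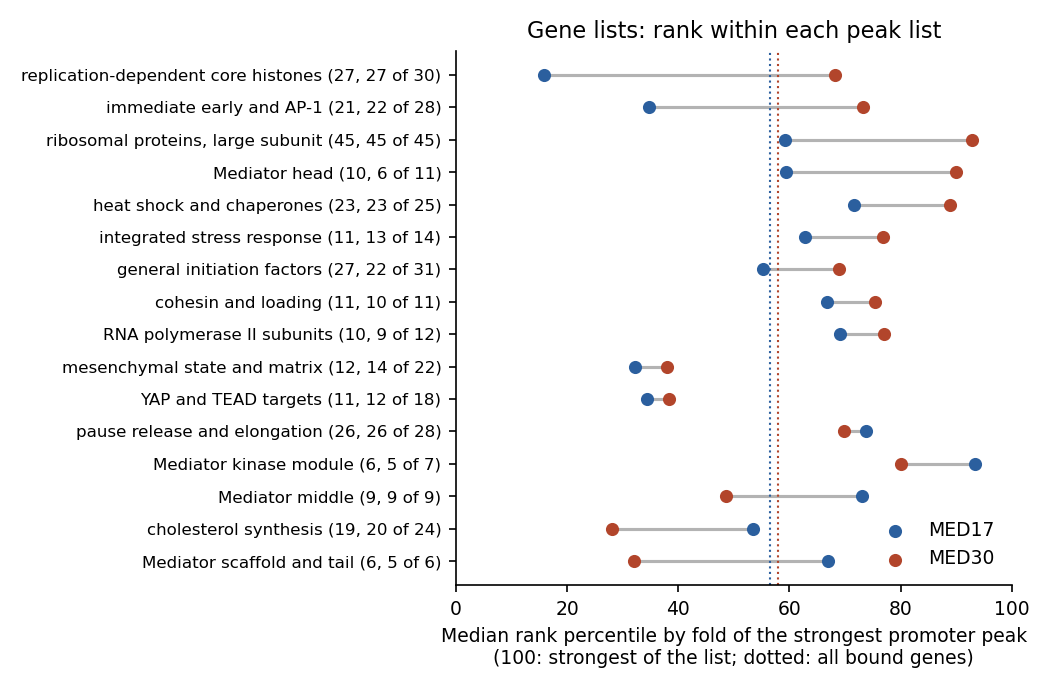
Median rank percentile by fold of the strongest promoter peak (horizontal axis, 100 the strongest) for each gene list (vertical axis), with the number of genes with MED17, with MED30 and in the list in brackets and dotted lines for all bound genes. Histone, immediate early and ribosomal protein genes lie farthest to the MED30 side (68.2 against 15.9 for histones), and cholesterol synthesis and Mediator tail genes to the MED17 side.

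Promoter sequence differed between the classes. The 300-base windows around 22132 protein-coding starts (250 bases before and 50 after) had a median GC content of 66.3% with both subunits, 68.3% with MED17 alone, 65.0% with MED30 alone and 56.3% with neither. Across deciles of GC content, the share of starts with MED17 rose from 7.79% in the lowest to 68.1% in the ninth and 68.0% in the highest. The share with MED30 rose from 6.52% to 59.3% in the eighth decile and then fell to 47.6% in the highest, where 66.9% of starts with MED17 also held MED30, against 85.2% in the sixth. Ranks followed: over the isolated starts with both, the median percentile difference, MED30 minus MED17, was 0.72 in the lowest GC quintile and -9.42 in the highest. GC content affects library amplification and mapping, and its part in these differences was not tested.

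**Figure D5:**
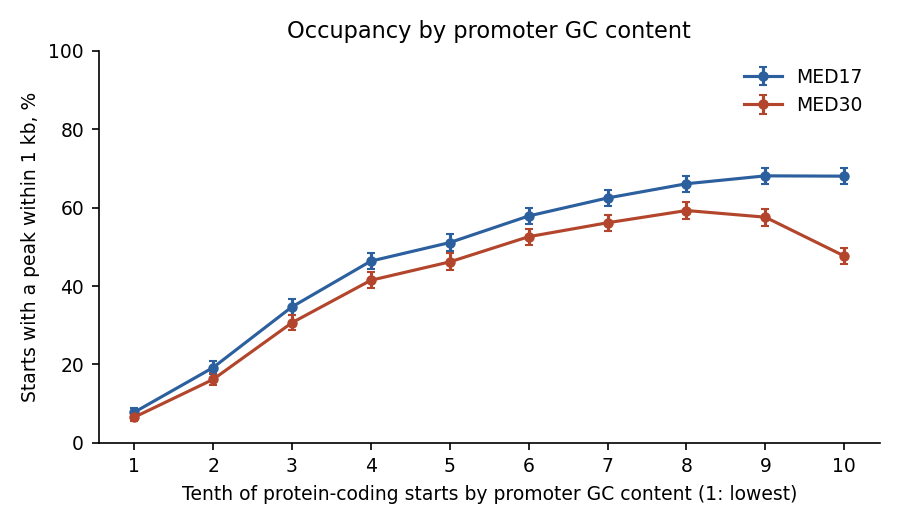
Share of protein-coding starts with a peak within 1 kb (vertical axis, percent, with exact 95% intervals) by decile of promoter GC content (horizontal axis) for MED17 and MED30. Both rise together to the eighth decile, after which MED17 stays at 68.0% and MED30 falls to 47.6%.

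Motif matches in these windows were counted on both strands. GC boxes were in 74.4% of starts with both subunits, 76.1% with MED17 alone, 69.2% with MED30 alone and 37.7% with neither, against 56.3% of all starts. ETS cores were in 22.4%, 15.0%, 19.4% and 4.55% of the same classes, against 12.8% of all. CCAAT was in 35.9%, 30.2%, 42.7% and 34.1%, against 34.6% of all. The TATA box was in 4.59%, 4.69%, 4.90% and 14.4%, against 9.46% of all. TGANTCA (AP-1) was in 3.94%, 3.57%, 4.72% and 8.44%, against 6.15% of all. TGACGTCA (cAMP response element) was in 3.30%, 2.79%, 2.62% and 1.32%, against 2.26%, and the E-box CACGTG in 10.4%, 10.5%, 9.44% and 6.30%, against 8.34%. The NRF1 motif was in 2.66%, 1.81%, 2.45% and 0.493%, against 1.505%, and the YY1 motif in 2.44%, 2.00%, 0.524% and 0.0731%, against 1.18%. CCAAT thus had its highest share where MED30 was found alone, and within quintiles of GC content its share there was 26.8% to 49.2%, above the other 3 classes in each quintile. These shares rest on 44 to 155 starts a quintile. From the lowest quintile of GC content they were 45.5%, 49.2%, 42.9%, 47.7% and 26.8% with MED30 alone, and 44.2%, 48.3%, 39.8%, 34.5% and 22.9% with both. The 95% intervals of these classes overlapped in every quintile but the fourth, where they were 39.7 to 55.9 and 32.6 to 36.4. Matches describe letters in a window and do not show that a factor was bound.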

How the data were processed

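MED17 and MED30 ChIP-seq in parental Mia PaCa-2 cells, 1 library each, was sequenced with 100 bp paired reads. Per the submitters' processing notes, hg38 was the build, and MACS2, Bowtie2, Trim Galore and deepTools were used, without versions or roles. The antibodies, and whether an input served as control, are not stated in these sources. The authors deposited 1 peak list per library with, for each peak, a score (10 times the −log10 q, rounded down), a fold enrichment ratio, −log10 p, −log10 q and the summit. Both lists start at a q of 0.05, as read from the values.

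Peaks on chromosomes 1 to 22 and X were kept outside stretches of over 2 Mb without a RefSeq gene: 945 MED17 and 898 MED30 peaks lay in 27 such stretches, and 430 and 350 on other contigs or Y. Pileups were recovered from fold and −log10 p, matching within 0.002 for over 99.9% of peaks. Gene starts come from RefSeq tables on GRCh38.p14. The promoter table gives start and strand for 15812 of 19973 protein-coding genes, and either end was used for the rest. Peaks overlapped from 1 bp, and pairs are mutual nearest summits. Intervals are exact (Clopper-Pearson or Poisson, 95%) and cover counting error only, since reads carry no molecular identifiers. With 1 library per subunit no test was made.

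Named sites are Mediator genes, the 10 best-ranked shared promoters, the 5 strongest sites of each subunit alone at and outside promoters (none of the other within 5 kb), the 5 most unequal pairs and the 5 largest summit offsets in each direction, and up to 4 genes per class of each list. A few sites and genes that this rule picks are not reported here. Members and lists were chosen with earlier results of these data known, and small RNA genes and summit positions along genes were added after their values were seen. Scripts used Python 3.11.15, numpy 2.4.6, pandas 2.3.3 and scipy 1.17.1, and were tested on simulated data. Alternatives covered overlap rule, threshold, list size, promoter window, ranking and sites kept.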

Additional observations from a re-analysis of the deposited data

How the results depend on the processing

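With −log10 q of at least 2 in both lists, each of the 11 main results moved little. Requiring 50% reciprocal overlap gave shares of 50.7% for MED30 with MED17 and 46.4% for MED17 with MED30, promoter shares of 61.9% for MED30 alone and 77.4% for MED17 alone, a summit distance of 189 bp, a width difference of -108 bp and a rho of 0.30. Requiring summits within 250 bp gave 43.7%, 40.0%, 65.0%, 78.4%, 121 bp, -105 bp and 0.30. That alternative sets the summit distance by its own construction. With peaks below the median fold of each list dropped the same quantities were 59.98%, 54.8%, 74.1%, 85.2%, 212 bp and, for rho, 0.18, while genes with both numbered 3160 and genes with MED30 alone 1809. With the 8000 most significant peaks of each list they were 69.9%, 70.2%, 54.8%, 84.3%, a width difference of -183 bp and a rho of 0.23, and genes with MED30 alone numbered 1308. With all deposited peaks on chromosomes 1 to 22, X and Y they were 77.6%, 72.1%, 28.6%, 62.6%, 211 bp, -136 bp and 0.32. Promoter windows of 500 bp gave promoter shares of 30.5% for MED30 alone and 66.3% for MED17 alone, windows of 2 kb 37.3% and 73.6%, and genes with known starts only 30.0% and 67.0%. Ranking by −log10 p gave a rho of 0.35. The summit offset was -162 bp over all pairs with a shared nearest start and -189 to -185 bp under the other alternatives. Genes with MED17 alone numbered 1519 to 2466 throughout. Ranking by −log10 p turned the sign of the rank difference, MED30 minus MED17, for 5 lists: polymerase II subunits (-1.02), cohesin (-11.1), YAP and TEAD targets (-7.35), heat shock and chaperones (-3.04) and mesenchymal genes (-1.72). The cause of these shifts was not tested, except where an alternative keeps fewer peaks. The alternatives on starts, snRNA genes and list ranking were chosen after seeing the data. No paired analysis was possible because each subunit has 1 library, and leaving out a replicate could not be done for the same reason. Depth limits weak sites: a site counted as alone can hold the other subunit under the threshold.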

Other observations

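The peaks left out for lying in gene-free stretches of over 2 Mb, 898 for MED30 and 945 for MED17, looked unlike the promoter peaks. Of these, 58.9% for MED30 and 56.2% for MED17 overlapped the other list, and the 526 pairs had a median summit distance of 22 bp and a Spearman rho of 0.83 between folds. Their highest folds were 25.9 for MED30 and 24.8 for MED17, above the highest kept peaks at 20.1 and 19.5. Some kept sites shared that near-coincidence, among them the U snRNA genes, with a median of 25 bp. Other examples were a pair of sites near chromosome ends, named by the nearest protein-coding start. The MED30 peak at chr22:50807903-50808460 lay 24363 bp from the start of RABL2B (folds of 18.2 for MED30 and 19.5 for MED17). That at chrX:156030363-156030734 lay 32874 bp from the start of IL9R (17.7 and 18.2). Summits of both subunits were 8 and 3 bp apart at these sites. Whether repeats pool reads there was not examined.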
